A study of Rattus norvegicus with 79 samples.

Results

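The genes described here encode the proteins of the cytosolic ribosome, measured in the CA1 field of the rat hippocampus. They were chosen by name alone: every gene whose symbol in the platform annotation begins with Rpl or Rps and a digit, or with Rplp, without the Rps6k kinases and pseudogenes, and only through probe sets with 1 symbol. That rule gave 41 of 4737 genes, 30 of the large subunit and 11 of the small subunit, on 59 probe sets. Of these, 56 probe sets for 39 genes were bright enough to be tested, and Rpl5, Rplp1l3 and 1 of the Rpl3l probe sets were not. A further 40 probe sets carry several symbols with a ribosomal protein among them and were left out by the rule.

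The arrays came from male Fischer 344 rats, 1 array per animal, killed a day after the last trial in a water maze, where rats swim until they reach a platform. They were young (3 months) or aged (24 months), and the labels give no genetic change or drug for any group. Cage controls never left the cage (3 young and 5 aged), yoked rats swam without any platform (6 young and 8 aged), visible platform rats could see it (4 young and 8 aged), and hidden platform rats had to learn its place. Hidden platform rats were 6 young, 13 aged rats classed as unimpaired learners, 10 aged rats classed as impaired learners and 16 aged rats whose titles carry a B that the labels do not explain. The tissue was a micro punch of the CA1 cell layer, so each array reads a mixture of cells, and fewer cells of a type and less RNA per cell cannot be told apart. Of the markers of CA1 neurons, Hpca, a calcium sensor of hippocampal pyramidal neurons, had a median signal of 11189.5, at the 99.2 percentile of all probe sets, while both probe sets of Camk2a, a main kinase of excitatory synapses, were dim at 63.8 and 93.5. Markers of other cells were also read, with the myelin gene Mbp at 3408.3 and the microglial complement gene C1qb at 705.3 on its brighter probe set.

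A cytosolic ribosome joins a small subunit, which reads the messenger RNA, to a large subunit, which forms the peptide bond and lets the new protein out through an exit tunnel. Each protein is present once or a few times per ribosome, and cells make the set in step. Most of these messenger RNAs begin with a C followed by a run of pyrimidines, the 5′ terminal oligopyrimidine tract, through which the mTOR pathway and the protein LARP1 set how well they are translated. Neurons keep ribosomes in dendrites as well as in the cell body, and new protein synthesis in the hippocampus is needed for lasting memory.

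The shared start sequence was looked for in RefSeq windows of 40 bases, 15 before and 25 after the transcript start used in the promoter table, assembly GRCr8. Of the 41 genes, 37 had a window, and Rpl19l4, Rpl27, Rpl30 and Rps29 had none. A run of at least 8 pyrimidines lay anywhere in the window in 25 of the 37 windows (67.6%), against 15% of all 33469 windows of the table. Such a run need not lie at the start used: in Rpl13a it begins 15 bases before the start and in Rpl39 at base 12 after it. The letters CTTTCC, on the strand of the gene, lay in 27% of the members' windows and in 1.7% of all windows, and on either strand in 29.7% and 3.4%. The start used was the outermost annotated end of the gene in 18 of the 37 genes, so a window without a run says only that these letters are not in it. The windows below are examples from genes named in the results, and no link between a run and a result was tested. Not shown are Rpl18, Rpl26, Rpl36, Rps27l and Rpl6, also named in the results, whose windows hold no run of 8 bases. Rpl14, Rpl35 and Rpl35a, not shown either, hold runs of 14, 18 and 13 bases. The capitals mark the longest pyrimidine run where it has at least 8 bases, and windows in lower case throughout have none.
Rpl27a, chr1:172974558-172974597, plus strand: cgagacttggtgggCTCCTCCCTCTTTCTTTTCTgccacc
Rpl19, chr10:83519049-83519088, plus strand: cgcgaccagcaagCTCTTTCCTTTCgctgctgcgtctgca
Rpl31, chr9:49143096-49143135, plus strand: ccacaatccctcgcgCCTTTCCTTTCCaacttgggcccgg
Rps10, chr20:5700720-5700759, minus strand: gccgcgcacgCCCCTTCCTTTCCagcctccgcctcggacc
Rps24, chr16:96502-96541, plus strand: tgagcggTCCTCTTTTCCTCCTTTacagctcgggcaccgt
Rpl39, chrX:121195872-121195911, minus strand: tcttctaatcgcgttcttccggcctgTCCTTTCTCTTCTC
Rpl24, chr11:58128381-58128420, minus strand: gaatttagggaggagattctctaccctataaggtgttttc
Rpl41, chr7:1563473-1563512, minus strand: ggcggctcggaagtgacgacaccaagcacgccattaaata
The run is 20 bases long in Rpl27a, 17 in Rps24, 14 in Rpl39, 13 in Rps10, and 12 in both Rpl19 and Rpl31.

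Array quality bears on every result below. An array's agreement with the rest was taken as its median Spearman correlation with all others; it was under 0.85 for 14 of the 79 arrays, with a lowest value of 0.223. They include 2 of the 3 young cage arrays, 2 of the 4 young visible and 4 of the 8 aged visible arrays, 2 of the 10 impaired arrays, and 1 array each of the aged cage, aged yoked, unimpaired and young hidden groups. The members read low on most of them: in the median of the members, 9 of the 14 lay below every array of their own group that is not of low correlation, and 1 lay above all of those. The ribosomal protein probe sets were bright, with a median at the 90.8 percentile of mean signal among the 5244 tested, and 51 of the 56 lay above the median probe set. The main comparisons are therefore given over all arrays and without those 14, and a difference is on the scale log2(signal + 15).

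The aged cage controls held the highest ribosomal protein level of the 10 groups. For each array the level was taken as the median over the 56 member probe sets of log2 values relative to each probe set's mean over the 79 arrays. The 5 aged cage arrays read 0.70, 0.89, 0.40, 0.45 and 0.59, the array at 0.45 being one of low correlation. In the aged yoked arrays the lowest, median and highest were -1.32, -0.09 and 0.65. In the aged visible arrays they were -1.06, 0.22 and 0.58. The unimpaired arrays read -0.46, 0.08 and 0.46, the impaired arrays -1.96, -0.20 and 0.50, and the B arrays -0.29, 0.13 and 0.57. Of the arrays, 12 of 13 unimpaired, 9 of 10 impaired, 15 of 16 B, 7 of 8 yoked and 5 of 8 visible arrays lay below the lowest aged cage array. The low visible arrays at -1.06 and -0.64 were both of low correlation, and without such arrays 2 of 4 visible arrays lay below the aged cage range.

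Among young rats the order was not the same. The 3 young cage arrays read -1.14, -0.22 and 0.07, and the 2 lower ones were of low correlation. The young yoked arrays ran from -0.49 through a median of 0.15 to 0.62, the 4 young visible arrays were at -0.59, -0.03, -0.02 and 0.35, and the young hidden arrays ran from -0.38 through 0.12 to 0.58. All these ranges overlap. The SD between arrays of a group, pooled over the 10 groups, was 0.43, and groups next to each other in the order of the 10 medians, aged cage (0.59) and aged visible (0.22) included, differed by less than that. The median of all tested probe sets moved far less, between -0.18 and 0.39 over the arrays.

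**Figure D1:**
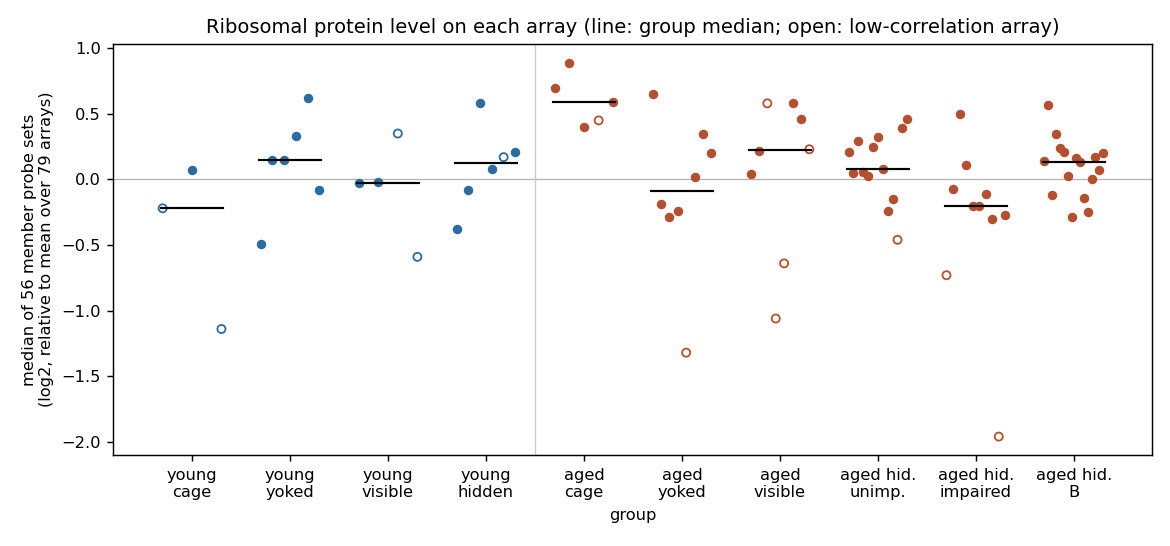
Each point is 1 array, grouped along the x axis by age and treatment; the y axis is the median of the 56 ribosomal protein probe sets in log2 units relative to the mean over 79 arrays. Lines are group medians and open points are the 14 arrays of low correlation. The 5 aged cage arrays lie between 0.40 and 0.89, and the lowest points, at -1.96, -1.32, -1.14 and -1.06, are all open.

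Over the 10 groups, 27 of the 56 member probe sets differed (limma's F test, 9 degrees of freedom, adjusted p under 0.05), against 25% of all probe sets. With the 14 arrays left out 29 did, against 26.4%, and 19 were called both times. The member with the smallest p over all arrays was Rpl39, a very small protein that lines the exit tunnel of the large subunit (adjusted p = 5.9e-05; between 1.8e-10 and 0.00539 over the 87 alternatives). The Rpl39 arrays of young cage rats read 13.68, 13.04 and 14.31, and those of aged cage rats 12.01, 11.57, 11.33, 12.14 and 11.42. The 2 cage groups did not overlap, and young cage was the highest group. The lowest, median and highest Rpl39 values were 11.24, 11.75 and 13.40 in young yoked rats and 10.63, 11.59 and 12.37 in young hidden rats. The 4 young visible arrays read 11.85, 11.93, 13.48 and 12.69. The values were 10.93, 11.21 and 13.75 in aged yoked, 11.51, 12.03 and 13.78 in aged visible, 10.54, 11.32 and 12.34 in unimpaired, 10.20, 11.18 and 11.92 in impaired and 11.07, 11.79 and 12.63 in B rats. The highest readings of the young visible, aged yoked and aged visible groups, at 13.48, 13.75 and 13.78, came from arrays of low correlation.

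The members did not move as a block over the groups. Rps24, a small subunit protein, followed Rpl39 in order of p (adjusted p = 0.000263; between 5.5e-07 and 0.00307 over the 87 alternatives). Rps24 read 6.06, 5.55 and 6.72 in young cage rats but 8.34, 8.99 and 10.56 (lowest, median, highest) in young yoked rats, whose arrays all lay above. It read 5.53, 7.50 and 8.23 in B rats and 7.07, 8.22 and 9.67 in unimpaired rats. Rpl18, Rpl3, Rpl41, Rpl14, Rps27l and Rpl6 were also among the members called over all arrays.

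**Figure D2:**
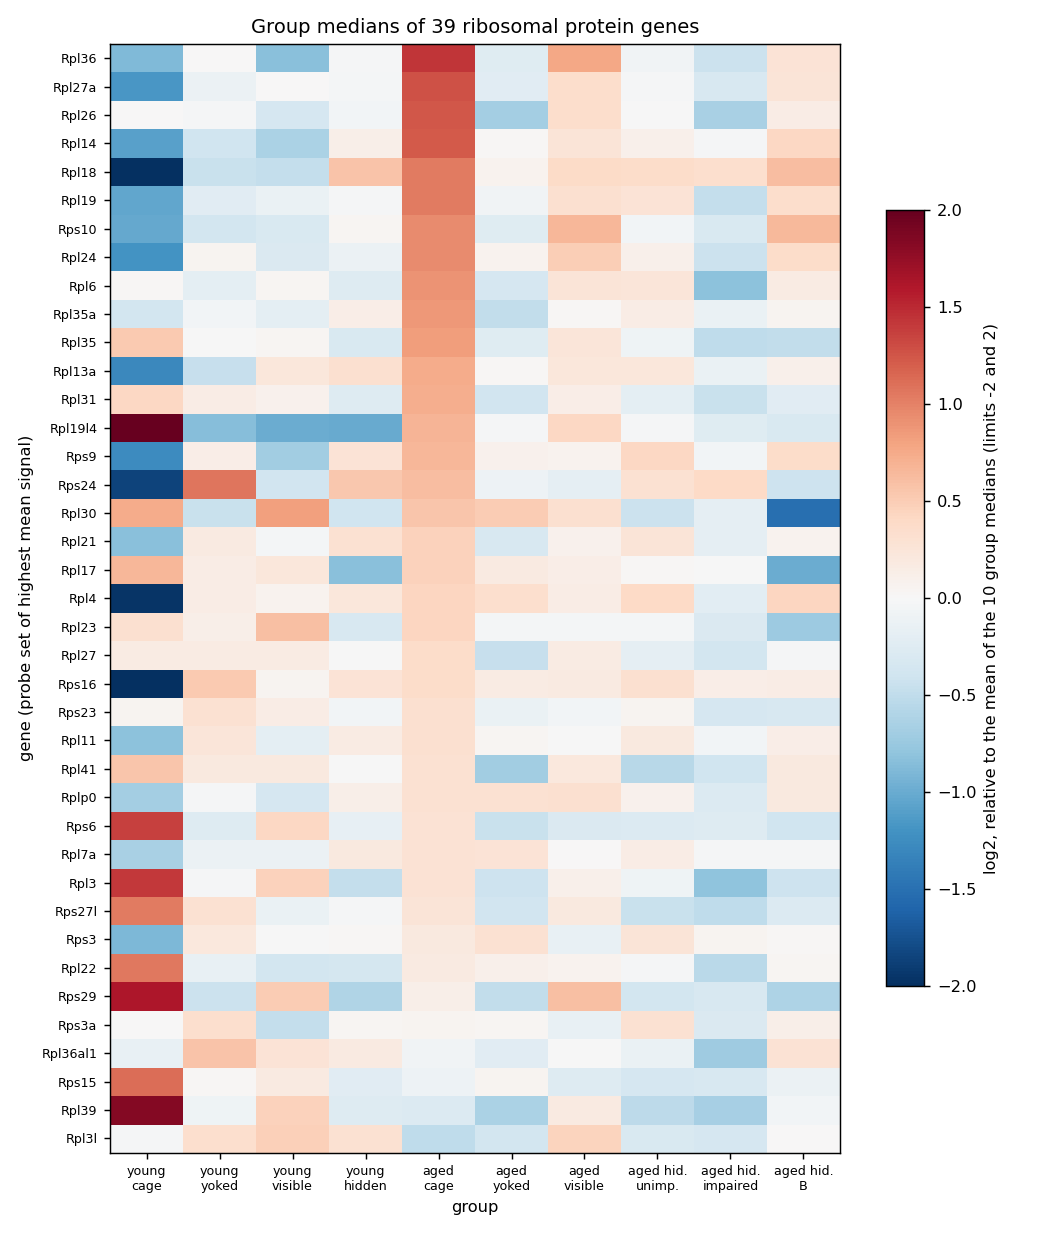
Rows are the 39 tested genes, by the probe set of highest mean signal, ordered by their level in aged cage rats; columns are the 10 groups, and colour is the group median in log2 units relative to the mean of the 10 group medians of that gene, clipped at -2 and 2. Most rows are red (higher) in the aged cage column, while the young cage column, of which 2 of 3 arrays are of low correlation, holds both the deepest blue and the deepest red; Rpl39 is among the red ones there and Rpl18 among the blue.

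The training contrast in aged rats was hidden platform (the mean of the unimpaired and impaired groups) against cage controls. Ribosomal protein probe sets were lower in trained rats almost throughout: 53 of 56 had a negative difference, with a median of -0.74 against 0.08 over all probe sets. Over all probe sets this difference fell with mean signal (Spearman -0.270 over all arrays and -0.0611 without those of low correlation). The part of mean signal in the members' difference was not tested. Over all arrays no member was called, and no probe set at all was (0 of 5244, 0%). At an unadjusted p under 0.05 there were 28 members (50.0%) and 8.56% of all probe sets. In the fit without the 14 arrays 13 member probe sets were called, all lower, against 1.33% of all probe sets, and the median was -0.57 with 53 of 56 below 0. They belong to 11 genes, and 10 of the 13 probe sets are of the large and 3 of the small subunit. With only 1 array left out at a time, no member was called in any of the 44 omissions.

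Rpl24, a large subunit protein at the face towards the small subunit, had the smallest p without the arrays of low correlation. The aged cage arrays read 13.08, 13.13, 13.29, 12.95 and 13.19. The unimpaired arrays ran from 10.53 through a median of 12.29 to 12.62, and the impaired arrays from 10.46 through 11.77 to 12.46. On this probe set, the brighter one, all 23 trained arrays lay below all 5 cage arrays. The difference was -1.23 (SE 0.35) over all arrays (adjusted p = 0.259) and -1.14 (SE 0.21) without the arrays of low correlation (adjusted p = 0.0103; between 0.00745 and 0.852 over the 54 alternatives). The second probe set of Rpl24 gave -0.78 (SE 0.20) without them. Over all arrays its groups overlapped, with 22 of the 23 trained arrays below every cage array.

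Rpl27a had the smallest p over all arrays. Its aged cage arrays read 13.42, 13.95, 14.39, 14.19 and 13.74, its unimpaired arrays 11.54, 12.65 and 13.62 (lowest, median, highest) and its impaired arrays 9.66, 12.35 and 13.56. The ranges overlap, with 21 of the 23 trained arrays below the lowest cage array. The difference was -1.53 (SE 0.40; adjusted p = 0.259), and -1.27 (SE 0.28) without the arrays of low correlation (adjusted p = 0.0234; between 0.021 and 0.852 over the 53 alternatives).

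The other genes called without the arrays of low correlation were spread over the ribosome. Proteins around the mouth of the exit tunnel, where a new chain leaves, were Rpl26 at -1.37 (SE 0.35) and, on its other probe set, -2.03 (SE 0.52), Rpl19 at -0.97 (SE 0.24), Rpl31 at -0.75 (SE 0.20) and Rpl35 at -0.93 (SE 0.24). Rpl36 fell by 1.60 on the log2 scale (SE 0.36) and Rpl14 by 0.90 (SE 0.20). Of Rpl36, as of the brighter Rpl24 probe set, all 23 trained arrays lay below the 5 cage arrays, which for Rpl36 read between 11.97 and 12.26. In the small subunit Rps10, a protein of its head, fell by 1.04 (SE 0.26) and 1 of the 2 Rps29 probe sets by 1.00 (SE 0.27). The probe set annotated as Rps27l, a paralog of Rps27 known as a target of p53, fell by 0.79 (SE 0.18). Its 23 trained arrays, at 9.82 or less, all lay below the cage arrays, at 9.87 or more. This probe set can also read RNA of a paralog, so the source of its values is uncertain. In all 3 of the 56 member probe sets had no overlap over all arrays. The share over all probe sets was not counted, so this count has no background to be read against.

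Rplp0, which anchors the stalk that recruits elongation factors, differed by -0.22 (SE 0.31) over all arrays, nearer to 0 than the median of the members. Rps6, the classic substrate of the S6 kinases, differed by -0.85 (SE 0.40) on the probe set of highest signal and by -0.44 (SE 0.47) on the other. Neither was called, also without the arrays of low correlation. By subunit the median over all arrays was -0.76 for the 40 large and -0.58 for the 16 small subunit probe sets, and whether these differ was not tested.

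**Figure D3:**
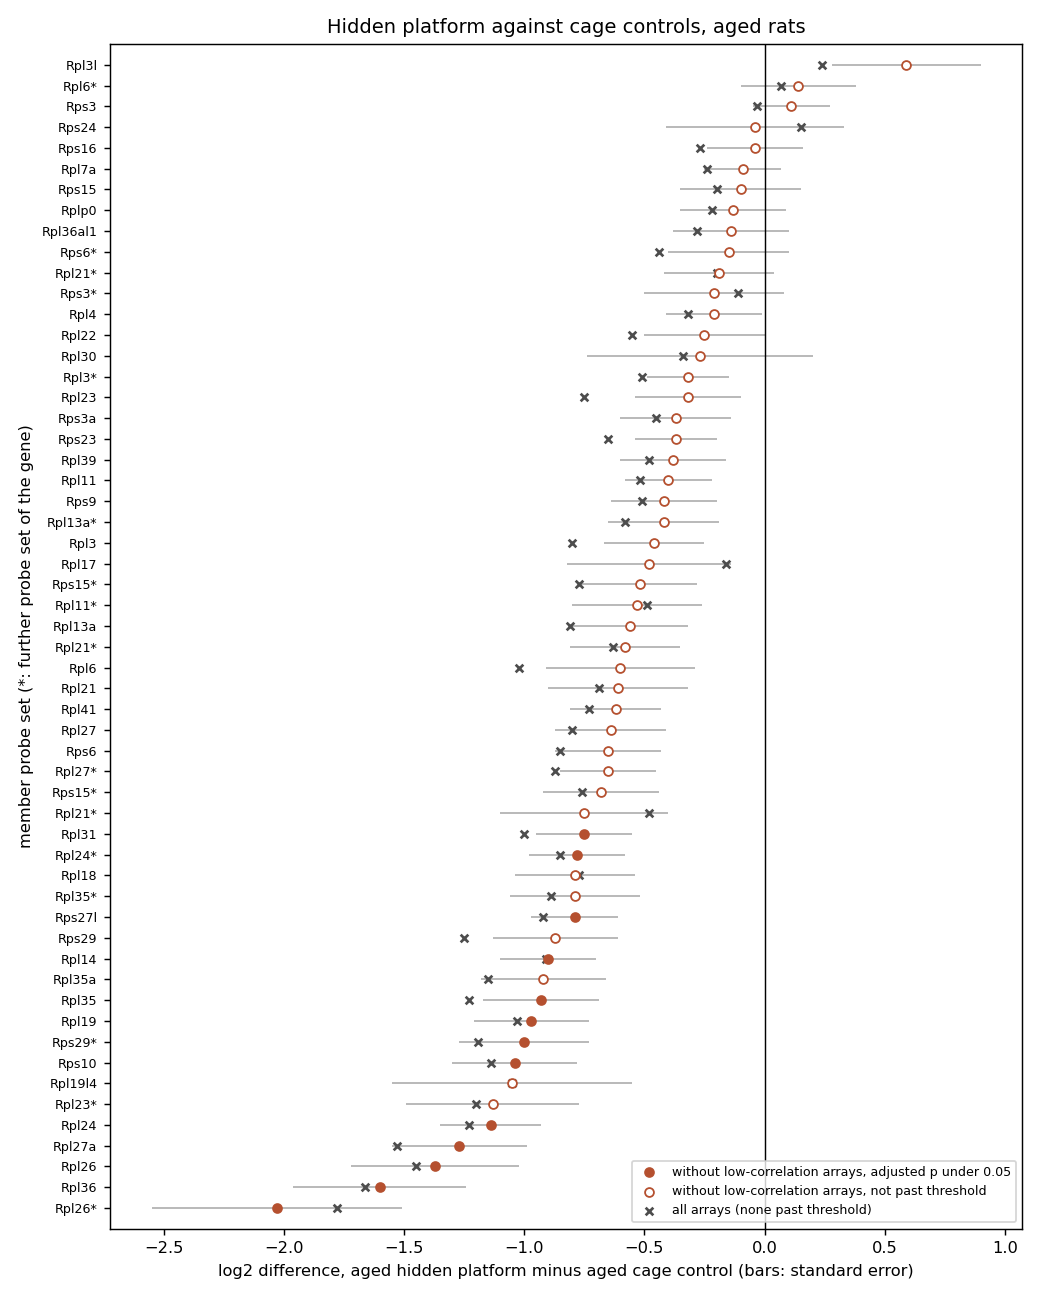
Each row is 1 of the 56 member probe sets and the x axis is its log2 difference between aged hidden platform and aged cage rats. Circles with bars (SE) come from the fit without the arrays of low correlation, filled where the adjusted p was under 0.05, and crosses from all arrays. The 13 filled circles all lie left of 0, and the crosses lie on the same side of 0 as the circles for most rows.

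Yoked rats were set against the same 5 cage controls, which both comparisons share. Over all arrays 50 of 56 members were lower in yoked than in cage rats, with a median of -0.64 against 0.14 over all probe sets. No member was called, against 0.0191% of all probe sets. For 8 of the 56 the yoked and cage arrays did not overlap, and the share over all probe sets was not counted. At an unadjusted p under 0.05 there were 18 members (32.1%) and 9.06% of all probe sets. Over all probe sets this difference fell with mean signal (Spearman -0.243 over all arrays and -0.149 without those of low correlation). Once the 14 arrays were out 2 members were called, against 0.172%. Rpl41, one of the smallest known eukaryotic proteins, read 9.66, 10.04, 10.20, 10.39 and 9.77 in aged cage rats and 8.33, 9.04 and 9.59 (lowest, median, highest) in aged yoked rats. The 2 groups did not overlap. Its difference was -1.01 (SE 0.27; adjusted p = 0.203), and -0.97 (SE 0.21) without the arrays of low correlation (adjusted p = 0.0408; between 0.0107 and 0.846 over the 53 alternatives). Rpl35a was the other, at -1.31 (SE 0.29; adjusted p = 0.0408; between 0.0178 and 0.846 over the alternatives), and Rpl26 stood at -1.72 (SE 0.47; adjusted p = 0.216) over all arrays.

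Hidden and yoked rats, compared directly, had no member called over all arrays, with a median of -0.08 (0% of all probe sets called). No member had an unadjusted p under 0.05, against 2.96% of all probe sets. Without the low arrays none was called either, with 4 members and 369 of all 5244 probe sets at an unadjusted p under 0.05. Rpl30, at -0.78 (SE 0.47), was among the 3 with the smallest p. Hidden against visible platform rats gave no member called, against 0.0191% of all probe sets, and a median of -0.20. At an unadjusted p under 0.05 there were 10 members (17.9%) and 11.4% of all probe sets. The members were led by Rpl39 at -1.02 (SE 0.27, adjusted p = 0.13) and Rps27l at -0.84 (SE 0.22, adjusted p = 0.13). With the 14 arrays out 17 members and 598 of all 5244 probe sets reached an unadjusted p under 0.05, and none was called (0%).

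Control probe sets at the 3′ and 5′ ends of the same transcripts give a ratio that reflects RNA integrity and the length of the amplified copies, and it differed between these groups. Its log2 value averaged 3.70 (SD 0.93) in aged cage rats, 2.78 (SD 1.24) in aged yoked, 2.56 (SD 1.63) in aged visible, 3.44 (SD 0.52) in unimpaired and 2.88 (SD 1.21) in impaired rats. With that ratio as a covariate the median of the members was -0.58 for hidden against cage and -0.36 for yoked against cage, with no member called in either. Marker genes for astrocytes summed to between 16.80 and 17.80 (log2) in aged cage rats. They summed to between 16.50 and 17.34 in unimpaired and 14.13 and 17.10 in impaired rats. In hidden against cage rats 13 of the 22 tested astrocyte probe sets were lower and 9 higher, with a median of -0.34 (-0.15 without the low arrays). CA1 pyramidal markers summed to between 16.35 and 17.71 in aged cage rats, 16.50 and 17.14 in unimpaired and 14.07 and 16.98 in impaired rats. Of their 24 tested probe sets 15 were lower and 9 higher in hidden against cage rats, with a median of -0.16 (0.06 without the low arrays). Red blood cell markers stood highest in aged cage rats, where they summed to between 11.89 and 14.11 with a median of 13.54. Their medians were 11.83 in aged yoked rats (highest 14.50), 12.13 in aged visible, 12.01 in unimpaired, 12.17 in impaired and 11.88 in B rats, and the ranges overlapped. Of their 5 tested probe sets 3 were higher and 2 lower in hidden against cage rats, with a median of 0.13 (-0.18 without the low arrays). Over all arrays that comparison called no probe set at all, so no marker could be called. Without the low arrays it called 1.33% of all probe sets, and none of the astrocyte, CA1 pyramidal or red blood cell markers. No marker probe set was at 0 throughout. The part of these values in the result was not tested.

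Age was compared first over the 4 treatments together, in 63 arrays without the B rats. Over all arrays no member was called, against 5.13% of all probe sets, and 31 members were higher and 25 lower in aged rats, with a median of 0.06. At an unadjusted p under 0.05 there were 9 members (16.1%), fewer than the 20.8% of all probe sets. The smallest p was that of Rpl39, at -0.60 (SE 0.20; adjusted p = 0.0553; between 0.0121 and 0.198 over the 72 alternatives), followed, by brightest probe set, by Rpl41 at -0.40 (SE 0.14) and Rps27l at -0.47 (SE 0.17). Leaving out 1 array gave between 1 and 3 called members in 21 of 63 omissions, with 3 without young hidden animal 37.

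In the 49 of these arrays that are not of low correlation 8 members were called for age, 3 higher and 5 lower, against 13.9% of all probe sets, so the members' share of 14.3% was close to the background. Rps15 (on 1 of its 3 probe sets) rose by 0.78 (SE 0.21), Rpl18 by 0.57 (SE 0.19) and Rpl14 by 0.46 (SE 0.16). Rpl41 fell by 0.46 (SE 0.13), Rps27l by 0.43 (SE 0.12), Rpl36al1 by 0.47 (SE 0.14), 1 of the 2 Rpl27 probe sets by 0.39 (SE 0.12) and Rpl39 by 0.49 (SE 0.16). Over all members 35 were higher and 21 lower. Markers of other cell types were called for age in the same fits. Of astrocyte markers 3 of 22 probe sets were called higher over all arrays and 10 of 22 in the 49 arrays, and of microglial markers 3 of 11 both times. Of CA1 pyramidal markers 1 of 24 was called higher (Camk2b) and 1 lower (Pcp4) over all arrays, against 4 higher and 0 lower in the 49 arrays, 2 of them of Camk2b and 1 each of Thy1 and Ncdn. Of interneuron markers 1 of 11 was lower over all arrays (Sst), against 4 lower (Gad1, Npy, Sst and Calb2) and 1 higher (Gad2) in the 49 arrays. Of oligodendrocyte markers 0 of 16 were called over all arrays, against 2 higher (Mbp and Pllp) and 1 lower (Mal). Of red blood cell markers 0 of 5 were called over all arrays, against 1 higher (Hbb) and 1 lower (Slc4a1). Bok, of the neighbouring hippocampal fields, was called higher both times, and none of 12 endothelial probe sets was called in either fit. The part of these in the members' differences was not tested.

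The age difference depended on the treatment for Rpl18, a large subunit protein, in the test of interaction over all arrays. Its young cage arrays read 7.51, 8.90 and 7.03, and its aged cage arrays 11.73, 11.53, 10.64, 10.73 and 11.01. The young yoked arrays ran from 9.02 through 9.52 to 11.19 and the aged yoked arrays from 7.98 through 10.04 to 11.23. The 4 young visible arrays read 9.68, 9.32, 8.87 and 10.17 and the aged visible arrays ran from 6.95 through 10.36 to 11.17. The young hidden arrays ran from 9.39 through 10.54 to 11.29. The age groups were apart in cage controls and overlapped in the other treatments. The interaction (F test of limma, 3 degrees of freedom) gave an adjusted p of 0.0400 for Rpl18, the 1 member called, against 0.305% of all probe sets. Over the 72 alternatives the adjusted p of Rpl18 ran from 5.1e-08 to 0.616; it was 0.140 without the arrays of low correlation, 0.204 without young cage animal 70, 0.137 without young cage animal 76, and also over 0.05 without any 1 of aged cage animals 35, 36, 99 and 100 or young hidden animals 3, 37 and 40. When the 14 arrays were left out the members called were Rpl14 (adjusted p = 0.0175; between 2e-08 and 0.671 over the alternatives) and Rps24 (adjusted p = 0.0203; between 1.1e-05 and 0.515), 2 members against 1.51%.

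Within cage controls 19 members were called, 18 higher and 1 lower in aged rats, against 17% of all probe sets. By sign alone 41 of the 56 members were higher and 15 lower. The median of the members was 1.27 where that of all probe sets was -0.27. Rpl18 rose by 3.31 (SE 0.60; adjusted p = 0.000187), Rps16 by 3.02 (SE 0.79), Rpl14 by 2.28 (SE 0.49), Rps10 by 2.21 (SE 0.76), Rpl27a by 2.15 (SE 0.59), Rps24 and Rpl19 both by 2.08 (SE 0.62 and 0.64) and Rpl13a by 1.97 (SE 0.53). Rpl39 fell by 1.98 (SE 0.48), with no overlap between the 2 cage groups. This comparison rests on 3 young arrays of which 2 are of low correlation. Without young cage animal 76 the count was 8 and without animal 74 it was 28. Without all arrays of low correlation 1 young cage array was left, taken to vary like the other groups; 7 members were then called, all higher, against 10.5%, with a median of 0.56, and 6 of the 7 had been called over all arrays. The 3′ to 5′ ratio averaged 1.07 (SD 1.39) in young cage rats, the lowest of the 10 groups, and 3.70 in aged cage rats. With the ratio as a covariate 1 member was called and the median was 0.30. Astrocyte markers summed to between 15.22 and 16.37 in young cage rats and 16.80 and 17.80 in aged cage rats, with no overlap. Red blood cell markers, at 10.66 to 11.87 in young and 11.89 to 14.11 in aged cage rats, and endothelial markers, at 12.94 to 13.96 in young and 11.96 to 12.88 in aged cage rats, did not overlap either. Over all probe sets the age difference in cage controls rose with mean signal (Spearman 0.277 over all arrays and 0.00779 without those of low correlation). The part of mean signal and of these markers in the result was not tested.

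Within yoked rats the members did not shift upward. Over all arrays the median age difference was -0.18, and no member and no probe set was called (0 of 5244, 0%). At an unadjusted p under 0.05 there were 4 members (7.14%) and 7.80% of all probe sets. Rpl41 had the smallest p, at -0.99 (SE 0.25; adjusted p = 0.143). Its young yoked arrays ran from 9.71 through 9.94 to 10.33 and all lay above its 8 aged yoked arrays, at 8.33 to 9.59. Leaving out the 14 arrays, 6 members were called, 5 lower and 1 higher, against 6.50%. Rpl41 was at -1.04 (SE 0.20; adjusted p = 0.00194; between 0.000474 and 0.927 over the 72 alternatives), both Rpl27 probe sets were at -0.79 (SE 0.20) and -0.72 (SE 0.23), Rpl39 was at -0.80 (SE 0.25) and Rps27l at -0.76 (SE 0.20), while 1 of the 2 Rpl6 probe sets was at 1.00 (SE 0.32). Within visible platform and within hidden platform rats no member was called with or without those arrays. In visible platform rats 0.0381% of all probe sets were called over all arrays and 0.0191% without the low ones, and the members' medians were 0.03 and 0.30. At an unadjusted p under 0.05 there were 2 members (3.57%) and 6.88% of all probe sets over all arrays. Without the low ones there were 7 members and 489 of all 5244 probe sets. In hidden platform rats no probe set was called (0%), and the medians were -0.15 and -0.02. There 2 members (3.57%) and 2.02% of all probe sets had an unadjusted p under 0.05 over all arrays. Without the low ones 1 member and 335 of all 5244 probe sets did.

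**Figure D4:**
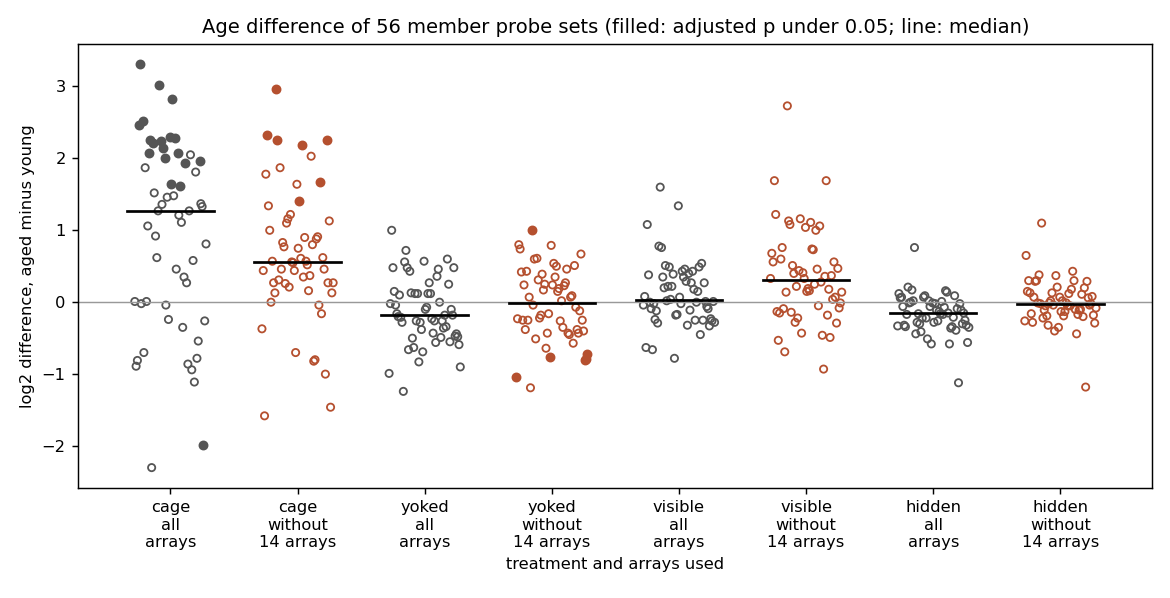
Each point is 1 of the 56 member probe sets, the y axis is its log2 difference between aged and young rats within 1 treatment, and each treatment is shown for all arrays and without the arrays of low correlation. Filled points passed an adjusted p of 0.05 and lines are medians. The spread and the median, 1.27, are widest and highest in cage controls over all arrays; within hidden platform rats the medians are -0.15 and -0.02.

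Young trained rats were compared with the same young cage controls. Hidden platform training went with 7 called members, 6 higher and 1 lower, against 5.28% of all probe sets, and a median of 0.62. Rpl18, with the arrays given above, rose by 2.61 (SE 0.51; adjusted p = 0.0120; between 0.000391 and 0.998 over the 28 alternatives), Rps16 by 3.00 (SE 0.78), Rpl4 by 1.79 (SE 0.49) and Rpl14 by 1.65 (SE 0.42). The other probe sets called higher were 1 each of Rpl3, at 2.37 (SE 0.57), and Rps6, at 2.47 (SE 0.62), and Rpl39 fell by 2.13 (SE 0.49). The calls depended on single arrays: the count was 0 without animal 70, 0 without animal 76 and 15 without animal 74, the 1 young cage array that is not of low correlation. It was also 15 without young visible animal 65, 4 without young hidden animal 3 or 38, 2 without animal 37 and 3 without animal 40. After all arrays of low correlation were left out only 1 young cage array remained, and the median of the members was -0.06. Against young yoked and young visible rats the hidden group had no member and no probe set called (0%), with medians of -0.02 and 0.11. At an unadjusted p under 0.05 there were 1 and 3 members (1.79% and 5.36%), against 1.77% and 5.23% of all probe sets. Without the low arrays there was again no call (0%), with medians of -0.03 and 0.13. At that p there were then 3 and 1 members, against 240 and 144 of all 5244 probe sets.

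Learning ability within aged hidden platform rats was compared next. Impaired rats read lower than unimpaired rats for 48 of 56 members, with a median of -0.46 against 0.04 over all probe sets. But no member and no probe set was called, with or without the arrays of low correlation (0% each time). At an unadjusted p under 0.05 there were 10 members (17.9%) and 12.9% of all probe sets over all arrays. Without the low ones there were 13 members and 705 of all 5244 probe sets. Rpl6, a large subunit protein, had the smallest p. Its unimpaired arrays read 10.89, 12.11 and 12.76 (lowest, median, highest) and its impaired arrays 7.89, 11.05 and 11.81. The 2 groups overlap, and 3 of the 10 impaired arrays lay below every unimpaired array. The difference was -1.22 (SE 0.34; adjusted p = 0.312), and -0.91 (SE 0.26; adjusted p = 0.204) without the arrays of low correlation. Over all alternatives its adjusted p lay between 0.117 and 0.715.

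The median of the members shrank from -0.46 to -0.17 without the arrays of low correlation, with 42 of 56 still lower. Impaired animal 83 alone read -1.96 in the median of the members. Over all 5244 probe sets the difference between impaired and unimpaired rats fell with mean signal (Spearman -0.683 across probe sets over all arrays and -0.329 without those of low correlation). Cell type markers also differed in this comparison, with no probe set called. Of CA1 pyramidal probe sets 18 of 24 were lower in impaired rats, with a median of -0.40 (-0.03 without the low arrays), and the medians of the microglial and interneuron lists were -0.46 and -0.34 (-0.25 and -0.16). Of endothelial probe sets 10 of 12 were higher both times, with medians of 0.49 and 0.33. The part of mean signal and of these markers in the members' difference was not tested.

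The B rats were set against both classes of learners. Against impaired rats 12 members were called, 10 higher and 2 lower, with 12.0% of all probe sets as background, and the median was 0.43. Rpl36al1, a form of the large subunit protein of the Rpl36a family, had the smallest p. Its B arrays read 9.94, 10.43 and 11.01 (lowest, median, highest) and its impaired arrays 7.79, 9.42 and 10.53, and all 16 B arrays lay above the mean of the impaired group. The difference was 1.12 (SE 0.21; adjusted p = 0.00101; between 0.000249 and 0.00465 over the 69 alternatives). The other genes called higher were Rpl6 at 1.28 (SE 0.30), Rps10 at 1.08 (SE 0.35), Rpl22 at 1.03 (SE 0.30), Rpl24 at 0.84 (SE 0.25), Rplp0 at 0.67 (SE 0.23), Rps27l at 0.63 (SE 0.19) and Rpl41 at 0.53 (SE 0.18), with 1 probe set each of Rpl26 and Rpl27. Rps24 was lower in B rats by -1.28 (SE 0.33), as was 1 of the 4 Rpl21 probe sets.

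Without impaired animal 83 the count was 6. With all 14 arrays out 11 members were called for B minus impaired, 7 higher and 4 lower, with 9.34% as background. Of these 8 had been called over all arrays, and the median was 0.12. Rpl22 at 0.44 (SE 0.19), Rplp0 at 0.37 (SE 0.16), Rps27l at 0.28 (SE 0.14) and Rpl27 were no longer called. The other Rpl24 probe set stood at -0.11 (SE 0.16). The 4 probe sets called lower were of Rps24, Rpl21 and Rpl23. Over all probe sets this difference rose with mean signal (Spearman 0.619 over all arrays and 0.230 without those of low correlation). Of CA1 pyramidal probe sets 20 of 24 were higher in B rats, with a median of 0.46, 3 called higher and 1 lower; without the low arrays the median was 0.08, with 3 called higher. Of endothelial probe sets 10 of 12 were lower, with 3 called lower, and 9 of 12 without the low arrays, with 1 called. The part of mean signal and of these markers in the members' difference was not tested.

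Against unimpaired rats no member was called over all arrays, with 0.0572% of all probe sets as background and a median of 0 to 2 decimals. At an unadjusted p under 0.05 there were 7 members (12.5%) and 7.17% of all probe sets. Over the better correlated arrays 5 members were called, 1 higher and 4 lower, against 1.66%. Rpl41 was higher in B rats by 0.56 (SE 0.14), while Rps24 was lower by -1.17 (SE 0.28), as were 1 probe set each of Rpl21, Rpl23 and Rpl3. Rps24 arrays of B rats, at 5.53, 7.50 and 8.23, lay below the unimpaired mean in 16 of 16 cases. Both comparisons share the B arrays, so the low Rps24 of B rats enters each of them.

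**Figure D5:**
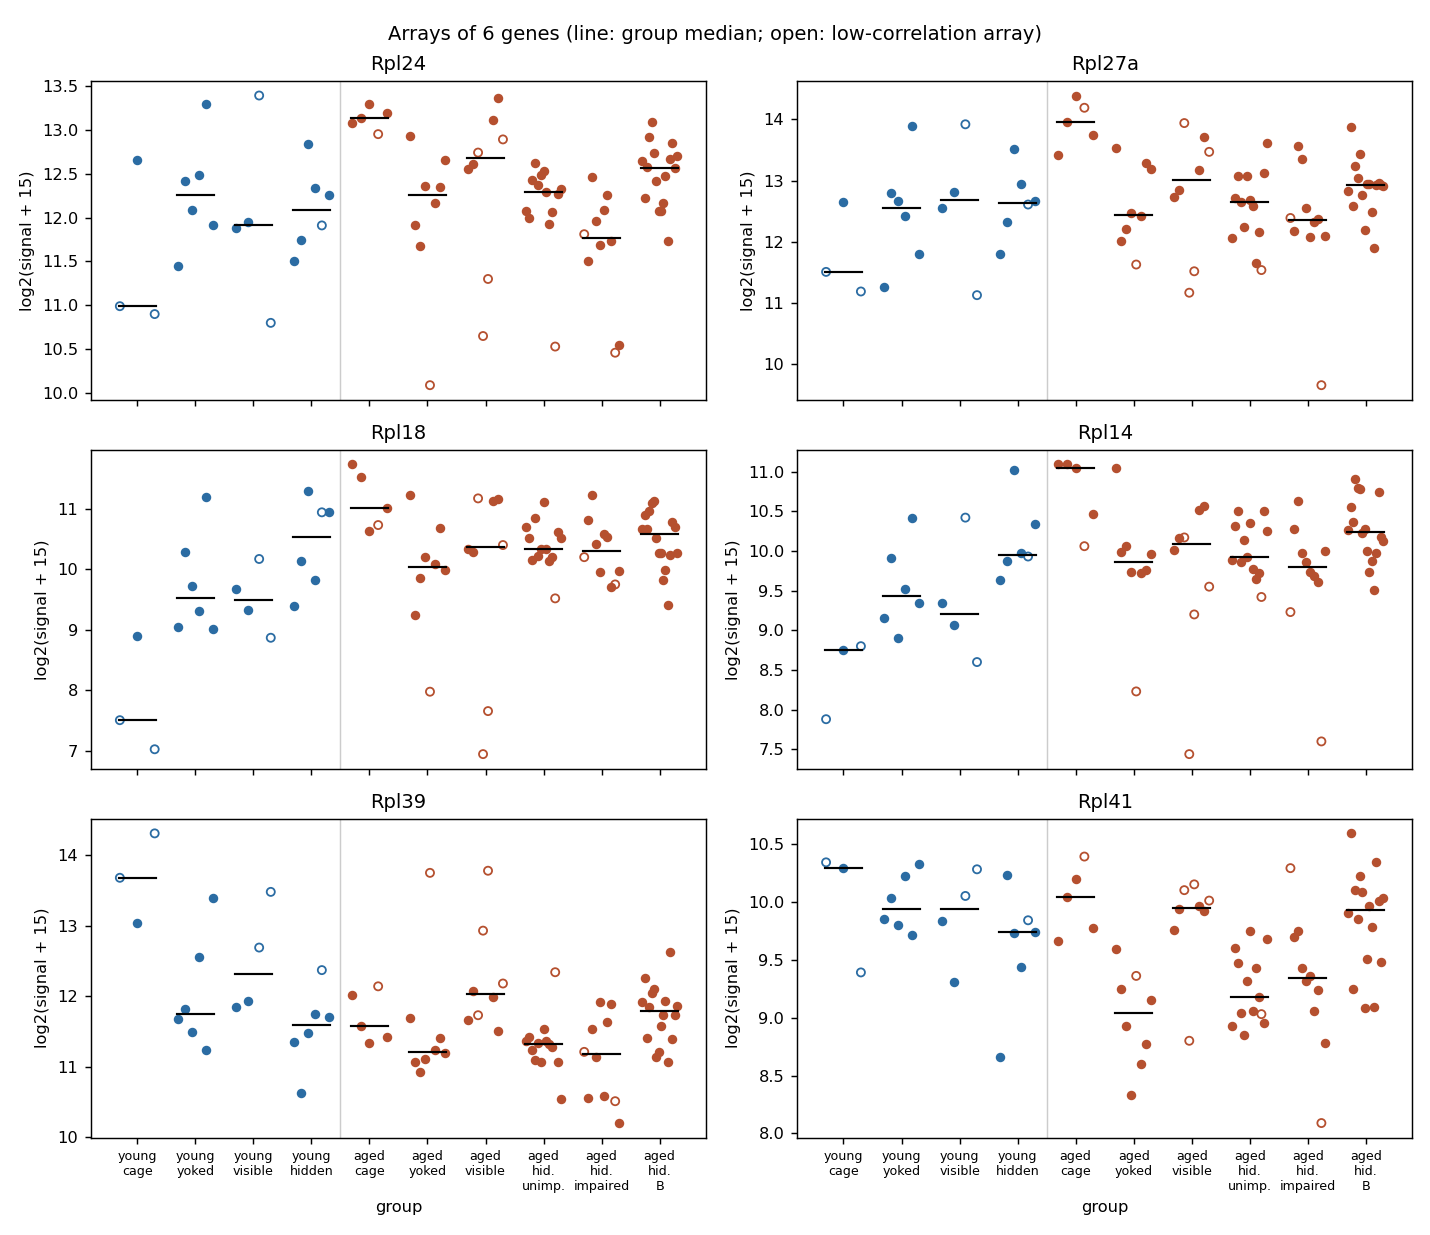
Each panel is 1 gene, each point 1 array at log2(signal + 15), grouped by age and treatment on the x axis; lines are group medians and open points are the arrays of low correlation. Rpl24, Rpl27a, Rpl18 and Rpl14 are highest in aged cage rats, Rpl39 is highest in young cage rats, and Rpl41 is low in aged yoked, unimpaired and impaired rats.

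The members moved together across arrays more than probe sets at large did. The median Spearman correlation over the 1540 pairs of member probe sets was 0.267 across the 79 arrays, against 0.012 over all pairs of tested probe sets; it was 0.287 against 0.018 over the 65 arrays that remained without those of low correlation. Relative to group means it was 0.244 over the 79 arrays. All points share the array, its RNA and its scaling, and the members share high signal, so these values are a description.

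Members differed in how closely they followed the rest. Against the median of the other members Rpl36 stood at a Spearman correlation of 0.89, Rpl26 and Rpl27a at 0.88 and Rpl19 at 0.85. Genes called in the age or B comparisons lay over a wide range: Rpl24 stood at 0.78, Rps10 at 0.76, Rpl18 at 0.74, Rpl14 at 0.71 and Rplp0 at 0.62, and Rpl41 at 0.30, Rps27l at 0.21, Rps24 at 0.19 and Rpl39 at 0.01. Rpl3l, the paralog of Rpl3 that is known from heart and skeletal muscle, ran against the rest at -0.41, as did 1 probe set of Rps15. The probe sets with the smallest SD over arrays were those of Rpl7a (0.45), Rpl41 (0.53), Rplp0 (0.56), and 1 each of Rpl21 and Rps15 (0.60 each). Among the largest were Rpl19l4 (1.81), Rpl30 (1.33), 1 of Rpl21 (1.15), and Rps16 (1.12).

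Probe sets of the same gene did not always agree, and 14 genes had more than 1 tested. Across the 79 arrays they correlated at 0.76 for Rpl35, 0.75 for Rpl11 and 0.74 for Rpl24, but at -0.06 for Rpl3, -0.03 for Rps6 and 0.20 for Rpl6, and down to -0.40 between 2 probe sets of Rps15 and -0.14 between 2 of Rpl21. In cage controls the age difference was 2.82 on 1 probe set of Rpl3 and -0.94 on the other, and 2.52 and -0.70 on those of Rps6. Ribosomal protein genes have many near-identical processed copies in the genome, and a probe set can also read RNA of a paralog or copy, so values of Rpl19l4, Rpl36al1, Rps27l and Rpl3l are uncertain as to their source.

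Other genes of the translation machinery had medians closer to 0 than the members in the training contrast, a difference that was not tested. For hidden against cage rats over all arrays the median was -0.32 for 8 elongation factor probe sets, -0.12 for 30 of initiation factors, -0.08 for 13 of ribosome biogenesis genes and -0.08 for 13 of the mTOR and S6 kinase pathway. None of these probe sets was called, in a fit that called no probe set at all (0 of 5244). Leaving the 14 arrays out gave medians of -0.27, -0.16, 0.00 and 0.11. Then 1 biogenesis probe set was called higher (Nolc1, at 1.42, SE 0.37) and 1 lower (Polr2f, at -0.98, SE 0.24), and none in the other 3 lists. For age within cage controls over all arrays the medians of the 4 lists, in the same order, were 1.19, 0.29, 0.24 and 0.12, against 1.27 for the members. Of their probe sets 3, 7, 4 and 2 were called higher and 3 of initiation factors lower, against 17% of all probe sets. For age over all arrays, 2 of the 30 initiation factor probe sets were called higher, Eif4h at 1.51 (SE 0.34) and Eif2b1 at 0.66 (SE 0.16), and 1 lower, Eif3m at -0.79 (SE 0.19), while Dkc1, a subunit of the enzyme that modifies ribosomal RNA, was higher by 1.84 (SE 0.36) and Tsc2, an inhibitor of mTOR signalling, by 0.50 (SE 0.15). The elongation factor Eef2 was at 0.60 (SE 0.21; adjusted p = 0.0761). In the 49 arrays Eef2, at 0.57 (SE 0.14), and Eef1a2, at 0.70 (SE 0.23), were called higher with age, as were Eif4h, Eif2b1, Eif5 and Dkc1, while Eif3m, Eif2s3, Eif4e and Rheb were called lower and Tsc2 was not called. Of mitochondrial ribosomal protein genes 5 were tested, with a median of -0.19 for hidden against cage and -0.35 for age and no call over all arrays; without the low ones Mrps14 was called lower with age, at -0.71 (SE 0.16).

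The ribosomal proteins outside the naming rule were Rpsa and Rack1. Rpsa, the small subunit protein also known as the laminin receptor, was at -1.08 (SE 0.56; adjusted p = 0.614) on its first probe set for hidden against cage and at 0.90 (SE 0.37; adjusted p = 0.135) for age. Without the low arrays this probe set was called in both, at -0.81 (SE 0.22; adjusted p = 0.0469) and at 0.74 (SE 0.20; adjusted p = 0.0102), while the other Rpsa probe set and Rack1 were not. Among genes that are no members, 3194 by 1 probe set each, Rpsa had the second highest Spearman correlation with the members' median over the 79 arrays, at 0.818. The first was Polr2f, a subunit shared by the RNA polymerases, at 0.828, and the third Elob, at 0.813. Then came Cst3 (0.806), Mt3 (0.80), Ndufb10 (0.788), Use1 (0.781), Uqcr11 (0.77), Pomp (0.768) and Psmd4 (0.761). These points share arrays and scaling with the members. Over the 65 arrays the first was again Polr2f (0.775), Ndufb10 was second (0.764), and Rpsa (0.756) was at rank 5.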

How the data were processed

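CA1 messenger RNA was measured on 79 arrays. Per the submitters' processing notes the authors made the deposited intensity values, 1 linear signal per probe set, with MAS5; per the labels, RNA was amplified in 2 rounds first, which favours the 3′ end of transcripts. The mean signal without the top and bottom 2% was 500.0 on each array, so arrays were scaled before deposit. The number of arrays limits the precision, and no source used here gives the genome build behind the probes or other settings.

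Values were taken as log2(signal + 15), which understates changes of dim probe sets. The 40% of probe sets of lowest mean signal and 59 controls were left out, which left 5244. Tests were limma 3.58.1 in R 4.3.3 (lmFit, eBayes with trend), two-sided, with Benjamini-Hochberg adjustment over all 5244 and a threshold of 0.05, checked on simulated data. Aged comparisons used 44 arrays (60 with B rats), young ones 19, age 63 and the test over 10 groups all 79. Counts are of probe sets, and a gene is named by its probe set of highest mean signal.

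Members past the threshold were named, up to 8 rises and 8 falls per comparison, or else the 3 genes of smallest p as values; names in fits without the 14 arrays of low correlation and further probe sets of a gene, and called genes of the other lists, were added after their values were seen. Members and gene lists were chosen with earlier results of these data known.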

Additional observations from a re-analysis of the deposited data

Results flagged for a closer look

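In the median of the members, impaired animal 83 stood apart from its group at -1.96, beyond what a test for single outlying values allows at the 95% level. The same animal stood apart for Rpl27a (9.66), Rpl6 (7.89) and Rpl14 (7.60). Aged yoked animal 63 stood apart for Rpl39 (13.75), Rpl24 (10.09) and Rpl14 (8.23), and aged visible animal 67 for Rpl41 (8.80) and Rpl14 (7.44). These 3 arrays are among the 14 of low correlation. Young hidden animal 2, which is not, stood apart for Rps24 (6.43). The 10 readings come from 77 tests over 11 measures, in groups of 4 to 10 arrays, and chance alone marks about 1 group in 20.

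The age difference of Rpl18 differed between treatments by the test of interaction (adjusted p = 0.0400, limma), with the arrays and exceptions given above.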

How the results depend on the processing

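Animal numbers are not shared between groups. No paired analysis was possible because no replicate number occurs in 2 groups. Pseudocounts of 1 and 60 and no filter moved no count of called members by more than 1.5 times. The main counts were 27 (10 groups), 0 (age), 1 (interaction), 19 (age in cage controls), 0 (age in yoked, visible and hidden rats, hidden minus cage, yoked minus cage, hidden minus visible and B minus unimpaired), 12 (B minus impaired) and 7 (young hidden minus cage). Array quality weights gave 52, 11, 38, 36, 4 (yoked), 9 (visible), 1 (hidden), 9 (hidden minus cage), 14 (yoked minus cage), 9 (hidden minus visible), 11 (B minus unimpaired) and 29 (young hidden minus cage). Taking the ratio of 3′ over 5′ controls into the fit, the counts were 15 (10 groups), 2 (age), 0 (interaction), 1 (cage), 1 (hidden minus visible), 1 (B minus unimpaired) and 0 (young hidden minus cage). Without the arrays of low correlation they were 8 (age), 2 (interaction), 7 (cage), 6 (yoked), 13 (hidden minus cage), 2 (yoked minus cage), 5 (B minus unimpaired) and 0 (young hidden minus cage). Quantile normalization gave 17 (10 groups), 0 (interaction) and 7 (B minus impaired), and median centring 0 (interaction), 11 (cage), 20 (B minus impaired) and 0 (young hidden minus cage). One fit over all 79 arrays gave 5 (age), 7 (interaction) and 17 (young hidden minus cage). Leaving out 1 array gave 18 to 34 (10 groups), 0 to 3 (age), 0 to 4 (interaction), 8 to 28 (cage), 0 to 1 (hidden minus visible, without aged yoked animal 63, and B minus unimpaired, without unimpaired animal 53, B animal 10 or aged visible animal 67 or 68), 6 to 16 (B minus impaired) and 0 to 15 (young hidden minus cage). The cause was not tested for any of these changes. Apart from the main fits and those without the arrays of low correlation, the share of all probe sets called under each setting is not given. Those counts therefore have no background and do not show whether calls changed more for the members than for all probe sets. Impaired minus unimpaired, hidden minus yoked, young hidden minus yoked and young hidden minus visible had 0 called members under every alternative run. Of 842 values of single genes and medians under alternatives other than leaving out 1 array, 720 kept their direction and side of the threshold (medians: moved by less than 1 SD between arrays), as did 4943 of 5077 with 1 array left out, and no value that had passed the threshold reversed. The median of the members in young hidden minus cage went from 0.62 to -0.06 without the arrays of low correlation. Median centring shifted the median of the members in impaired minus unimpaired from -0.46 to -0.78.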

Other observations

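The 38 tested probe sets that carry several symbols with a ribosomal protein among them were left out of the members by the naming rule and were read afterwards in the same fits. In aged hidden against cage rats 37 of the 38 were lower over all arrays, with a median of -0.68 and no call. Without the arrays of low correlation 36 were lower, with a median of -0.58 and 5 called, all lower. Yoked rats stood at a median of -0.83 from the same cage controls, with 35 lower. In cage controls 36 of the 38 were higher in aged rats, with a median of 1.84 and 20 called higher; without the arrays of low correlation the median was 1.02 with 8 called. In impaired against unimpaired rats 34 of 38 were lower, with medians of -0.43 and -0.25 with and without those arrays and no call. These probe sets share arrays and, in part, sequence with the members, so they are a description and no independent test.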
